A study of Mus musculus with 2 samples.

Results

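A set of 9 transcription factor genes used to place forebrain neurons were followed through single cells of the mouse hippocampus: Zbtb20, Prox1, Mef2c, Cux2, Rorb, Etv1, Bcl11b, Neurod2 and Neurod6. They were chosen by name, and all 9 were found among the 30223 genes of the deposited table. The table holds 7094 cells of a wild-type control library and 8836 cells of a library from homozygous Pigv341E knock-in mice, all of strain C57Bl.6/J. Pigv encodes an enzyme that builds the glycosylphosphatidylinositol anchor of cell-surface proteins. The animals' age and sex are not given in the sources used here. Cells of both hippocampi of 4 mice (8 hippocampi) per genotype were pooled before droplet capture, so each genotype is 1 library. There is therefore no replicate, no standard deviation and no test between libraries, and an effect of genotype and one of the library cannot be told apart. All intervals below are exact Clopper-Pearson 95% intervals for shares of cells and cover counting error only.

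In the forebrain, Zbtb20 is a zinc finger repressor needed for hippocampal pyramidal and granule neurons to take on their fate rather than that of the neighbouring cortex. Prox1 is a homeodomain factor that sets and keeps granule cell identity in the dentate gyrus, and it also marks a part of the cortical interneurons. Neurod2 and Neurod6 are related basic helix-loop-helix factors of maturing glutamatergic neurons. Bcl11b (also called Ctip2) is a zinc finger factor known for the deep-layer projection neurons of the cortex and for CA1 and dentate neurons. Cux2, Rorb and Etv1 are used as layer markers of the cortex, of the upper layers, of layer 4 and of layer 5 in turn, and Mef2c is an activity-regulated MADS-box factor of cortical neurons, interneurons and microglia. Since the cortex adjoins the hippocampus, the 9 genes were used to tell hippocampal subfields from cortical neurons in each library.

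Neuron classes were made without the 9 genes. After a first clustering, 8538 cells (3770 wild-type, 4768 knock-in) were taken as neurons, and these fell into 31 clusters. Other marker genes gave the names, and 16 clusters (2450 cells) stayed unnamed. Some of these counted mostly glial markers. The Prr5l and Fa2h cluster counted 8 of 8 for mature oligodendrocytes and the C1qa and C1qb cluster 6 of 8 for microglia. Such clusters were kept in the comparisons by cluster and over all neurons pooled. At least 50 cells of each library were found in 7 classes, here written as wild-type and knock-in cells: dentate granule neuron-like (1288 and 1171), CA1 pyramidal neuron-like (792 and 909), CA3 pyramidal neuron-like (252 and 317), cortical excitatory neuron-like (120 and 515), Lhx6 interneuron-like (74 and 125), immature neuron-like (67 and 93) and Cajal-Retzius cell-like (62 and 99). A level below is the sum of a gene's depth-corrected values over the cells of a class, per 10000 of the sum over all genes, and pairs of levels are given as wild-type and knock-in. Levels of different genes were not set against each other. The deposited totals per cell had medians of 8631 and 9608, the 2 libraries shared 28 cell barcodes, and the median number of genes above 0 was lower in wild-type than in knock-in cells of each of these classes, for example 4179.5 and 4422 in the cortical class.

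On GRCm38 with the GENCODE M21 annotation, all 9 are protein-coding genes. Zbtb20 (ENSMUSG00000022708) lies at chr16:42875881-43642602 on the plus strand, and Prox1 (ENSMUSG00000010175) at chr1:190118035-190170714 on the minus strand. Mef2c (ENSMUSG00000005583) lies at chr13:83504034-83667080 on the plus strand, Cux2 (ENSMUSG00000042589) at chr5:121856366-122050102 on the minus strand and Rorb (ENSMUSG00000036192) at chr19:18930605-19111196 on the minus strand. Both Etv1 (ENSMUSG00000004151, chr12:38779380-38870484, plus strand) and Bcl11b (ENSMUSG00000048251, chr12:107910403-108003602, minus strand) are on chromosome 12. Neurod2 (ENSMUSG00000038255) lies at chr11:98325415-98329648 and Neurod6 (ENSMUSG00000037984) at chr6:55677822-55681263, both on the minus strand.

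The related factors Neurod2 and Neurod6 parted in the dentate gyrus, so the 250 bases before their start sites are given here, from the RefSeq table of build GRCm38.p6, 5′ to 3′ on the minus strand. Capitals mark each match to CANNTG, the E-box letters that basic helix-loop-helix factors bind, which read the same on both strands.
Neurod2, chr11:98329646-98329895: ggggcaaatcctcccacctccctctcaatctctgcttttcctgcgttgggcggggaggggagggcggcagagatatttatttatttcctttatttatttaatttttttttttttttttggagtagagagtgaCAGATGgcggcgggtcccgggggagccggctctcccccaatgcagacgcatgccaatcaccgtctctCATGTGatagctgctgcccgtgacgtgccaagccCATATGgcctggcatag
Neurod6, chr6:55681264-55681513: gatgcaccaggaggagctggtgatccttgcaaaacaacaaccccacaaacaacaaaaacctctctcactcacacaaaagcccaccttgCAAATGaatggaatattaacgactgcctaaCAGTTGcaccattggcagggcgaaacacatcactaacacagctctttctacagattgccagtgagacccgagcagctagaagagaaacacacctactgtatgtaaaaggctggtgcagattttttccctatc
The Neurod2 window held 3 matches and the Neurod6 window 2. Of 32851 windows of the same length before annotated starts, 66.2% held at least 1 match to CANNTG. The form CAGATG, searched on the other strand as CATCTG, is also a match to the general motif and stood in the Neurod2 window and in 14.4% of all windows, and CATATG stood in the Neurod2 window and in 3.46% of all windows. Neither of these 2 forms was found in the Neurod6 window. All 9 genes had at least 1 start in the table, and these matches are a description of letters only.

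**Figure D1:**
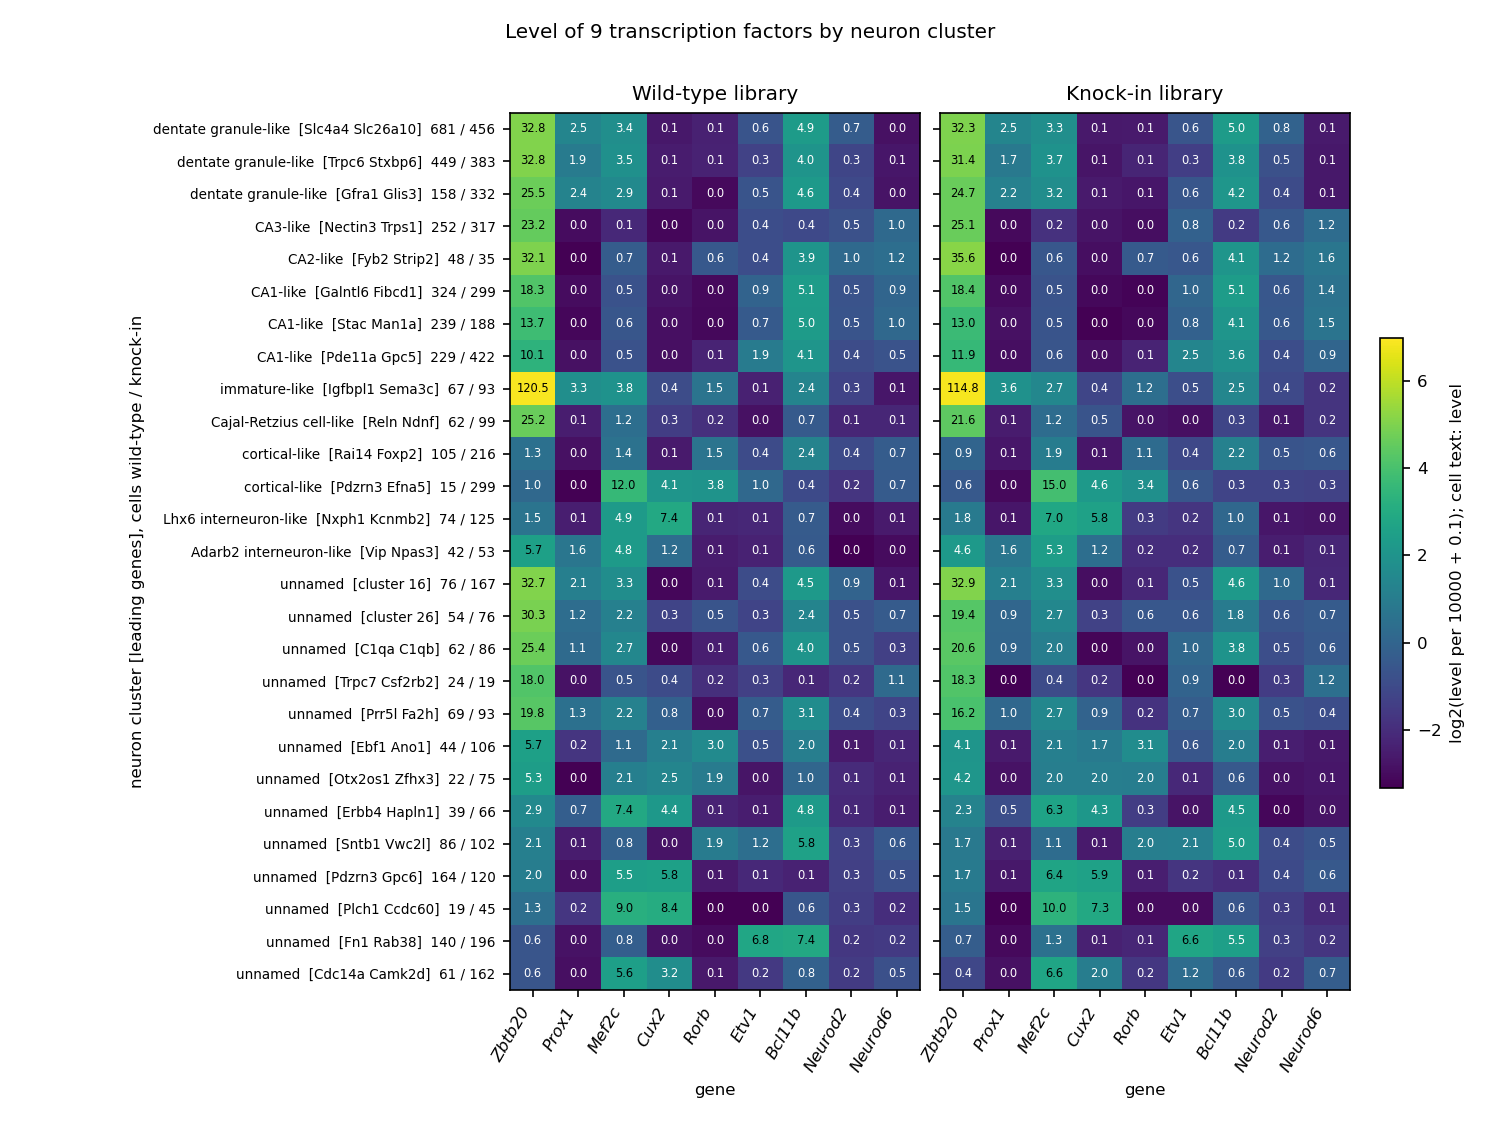
Level of the 9 factors (columns) in 27 of the 28 neuron clusters with at least 15 cells in each library (rows, with class, leading genes and cells), wild-type left and knock-in right. Color is log2(level per 10000 + 0.1) and the printed number is the level. Zbtb20 is bright in the dentate, CA and immature rows of both panels and dark in the cortical rows, where the Pdzrn3 Efna5 row is bright for Mef2c.

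Zbtb20 drew the sharpest line between hippocampal and cortical neurons. Its level was 31.8 and 29.8 in dentate granule cells, 23.2 and 25.1 in the CA3 class, and 14.5 and 14.2 in the CA1 class, against 1.26 and 0.752 in the cortical class. The median dentate cell had a value of 29 (wild-type) and 28 (knock-in), with every granule cell above 0. In the cortical class the median value was 1 and 0, and 48.3% (39.1 to 57.6) and 66.4% (62.1 to 70.5) of its cells were at 0. The area under the ROC curve (AUC) is the share of cell pairs in which the cortical cell has the higher value. A pair with equal values counts as 0.5 of a pair, and an AUC of 0.5 means no separation. For Zbtb20 it was 0.00979 and 0.0143, which places nearly every cortical cell below nearly every dentate, CA1 or CA3 cell in each library on its own.

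Among the hippocampal neurons Zbtb20 was graded. Immature neurons, the class marked by Dcx and Igfbpl1, had the highest level at 120.5 and 115. These cells had a median of 2432 and 2488 genes above 0, against 3875.5 and 4170 in dentate cells, and levels were not adjusted for this. The smaller CA2 class (48 and 35 cells) stood at 32.1 and 35.6 and the dentate class at 31.8 and 29.8, neighbours that were close in wild-type and further apart in knock-in cells. CA3 and Cajal-Retzius cells (25.2 and 21.6) changed places between the libraries and are not told apart. The CA1 class came last of the hippocampal excitatory classes, with its 3 clusters at 18.3 and 18.4 (leading genes Galntl6 and Fibcd1), 13.7 and 13.0 (Stac and Man1a) and 10.1 and 11.9 (Pde11a and Gpc5). Lhx6 interneurons were at 1.47 and 1.77. Zbtb20 was no neuron gene alone: astrocyte-like cells had 56.0 and 46.9 and microglia-like cells 15.4 and 11.7. The lowest Zbtb20 level of any neuron cluster of at least 50 cells per library was 0.556 and 0.362.

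Prox1 was restricted to fewer classes. Granule neurons had 2.27 and 2.16, with 84.5% (82.5 to 86.5) and 86.8% (84.8 to 88.7) of cells above 0. The immature class had 3.30 and 3.61 and the Adarb2 interneuron class (42 and 53 cells) had 1.57 and 1.58. In CA1 cells the level was 0.0269 and 0.0299, with 2.15% and 2.86% of cells above 0, which can serve as the background share of a gene that CA1 neurons are known to lack. Both the CA3 class, at 0.0282 and 0.0191, and the cortical class, at 0.0336 and 0.0346, lay at that background, and the CA2 class was listed at 0 in both libraries. The dentate and CA1 classes had median deposited totals of 9941 and 9947 and a median of 3875.5 and 4163 genes above 0 in wild-type cells. The AUC of Prox1 for cortical against hippocampal cells was 0.270 and 0.291, and it came from the granule cells: against these alone it was 0.0816 and 0.0715, against CA1 cells 0.502 and 0.499.

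Neurod2 and Neurod6 were both present in pyramidal neurons and differed in granule neurons. Neurod6 had levels of 1.04 and 1.17 in CA3, 0.848 and 1.19 in CA1 and 1.22 and 1.57 in CA2 neurons. In granule neurons it was at 0.0443 and 0.0613, and 4.19% (3.16 to 5.44) and 5.64% (4.39 to 7.12) of cells were above 0, close to the 5.41% and 4.80% of Lhx6 interneurons, which are not glutamatergic. Neurod2 was at 0.542 and 0.606 in those same granule neurons, where 37.5% (34.8 to 40.2) and 43.3% (40.4 to 46.2) of cells were above 0. Its level was highest in the CA2 class, 1.05 and 1.16 (60.4% and 71.4% of cells above 0). CA1 had 0.499 and 0.530, CA3 had 0.491 and 0.615, and Lhx6 interneurons had 0.0269 and 0.0549. The order of the dentate, CA1 and CA3 classes for Neurod2 was not the same in both libraries, so these 3 are not told apart by it. Cells with both genes above 0 made up 29.4% and 30.6% of CA3 cells, 25.1% and 32.5% of CA1 cells, and 1.48% and 2.82% of granule cells. With the values of every cell randomly reduced to a sum of 1000, Neurod6 was above 0 in 10.7% and 10.7% of CA3 cells and in 0.388% and 1.20% of granule cells. Against the dentate, CA1 and CA3 classes pooled, the AUC of cortical cells was 0.436 and 0.423 for Neurod2 and 0.552 and 0.447 for Neurod6. By subfield Neurod6 had an AUC of 0.684 and 0.637 against dentate cells, but 0.401 and 0.264 against CA1 and 0.354 and 0.270 against CA3 cells. Neurod2 reached 0.288 and 0.228 against the small CA2 class.

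Bcl11b split the hippocampus between CA1 and CA3. Its level was 4.79 and 4.17 in CA1, 4.58 and 4.36 in dentate and 3.93 and 4.10 in CA2 neurons, but 0.383 and 0.239 in CA3 neurons. Above 0 were 98.1% (96.9 to 98.9) and 94.9% (93.3 to 96.3) of CA1 cells, against 23.8% (18.7 to 29.6) and 11.0% (7.81 to 15.02) of CA3 cells. The dentate and CA1 classes changed places as the class of highest level and are not told apart. In the cortical class the level was 2.14 and 1.13, and the AUC against the pooled hippocampal classes was 0.271 and 0.20. Against CA3 alone the AUC was 0.788 and 0.671, past the limit of 0.7 in wild-type cells only. An unnamed cluster led by Fn1, a gene known from the subiculum, and Rab38 (140 and 196 cells) had the highest Bcl11b level of all clusters, 7.41 and 5.5. It counted 5 of 10 CA1 markers and 4 of another list, too close for a name.

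Etv1 was highest in that same Fn1 cluster, at 6.77 and 6.55, with 95% and 92.9% of its cells above 0. The cluster had Zbtb20 at 0.562 and 0.731, Rorb at 0.0216 and 0.118 and Cux2 at 0.0432 and 0.0927, so of the layer markers it carried Etv1 and not Cux2 or Rorb. Within CA1, Etv1 varied by cluster: 1.85 and 2.51 in the Pde11a cluster, 0.883 and 0.961 in the Galntl6 cluster, and 0.664 and 0.825 in the Stac cluster. The Pde11a cluster was also that of lowest Zbtb20 among the 3 in both libraries. Dentate neurons had 0.469 and 0.478 and the cortical class 0.488 and 0.498, and the AUC of 0.398 and 0.378 did not reach the limits.

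Cux2, Rorb and Mef2c are the cortical markers of the set, but each was also found elsewhere. Cux2 had its highest class level in Lhx6 interneurons, 7.42 and 5.82, and was at 0.0645 and 0.0605 in dentate, 0.0384 and 0.0210 in CA1 and 0.0121 and 0.0446 in CA3 neurons. Rorb was at 0.0846 and 0.0777 in dentate, 0.0423 and 0.0543 in CA1 and 0.0443 and 0.0287 in CA3 neurons, and at 1.76 and 2.46 in the cortical class. Its level in astrocyte-like cells was 14.7 and 13.8, above that of every neuron cluster. The 8 astrocyte markers summed to 7.66 and 6.02 in the cortical class, 10.3 and 11.5 in the dentate class and 0.679 and 0.865 in the CA1 class. One of the 8, Slc4a4, is also the first leading gene of a dentate cluster (681 and 456 cells), so the dentate sum does not measure astrocyte RNA alone. The part of astrocyte RNA in the Rorb levels was not tested. Mef2c was at 3.35 and 3.42 in dentate neurons, 4.90 and 6.96 in Lhx6 interneurons and 10.4 and 12.2 in microglia-like cells, against 0.522 and 0.547 in CA1 and 0.129 and 0.175 in CA3 neurons. The 8 microglia markers summed to at most 1.12 in dentate, CA1, CA3, Lhx6 and cortical neurons of either library. In immature cells they summed to 1.29 and 2.01 and in Cajal-Retzius cells to 1.64 and 1.88. The part of microglial RNA in the Mef2c levels was not tested.

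**Figure D2:**
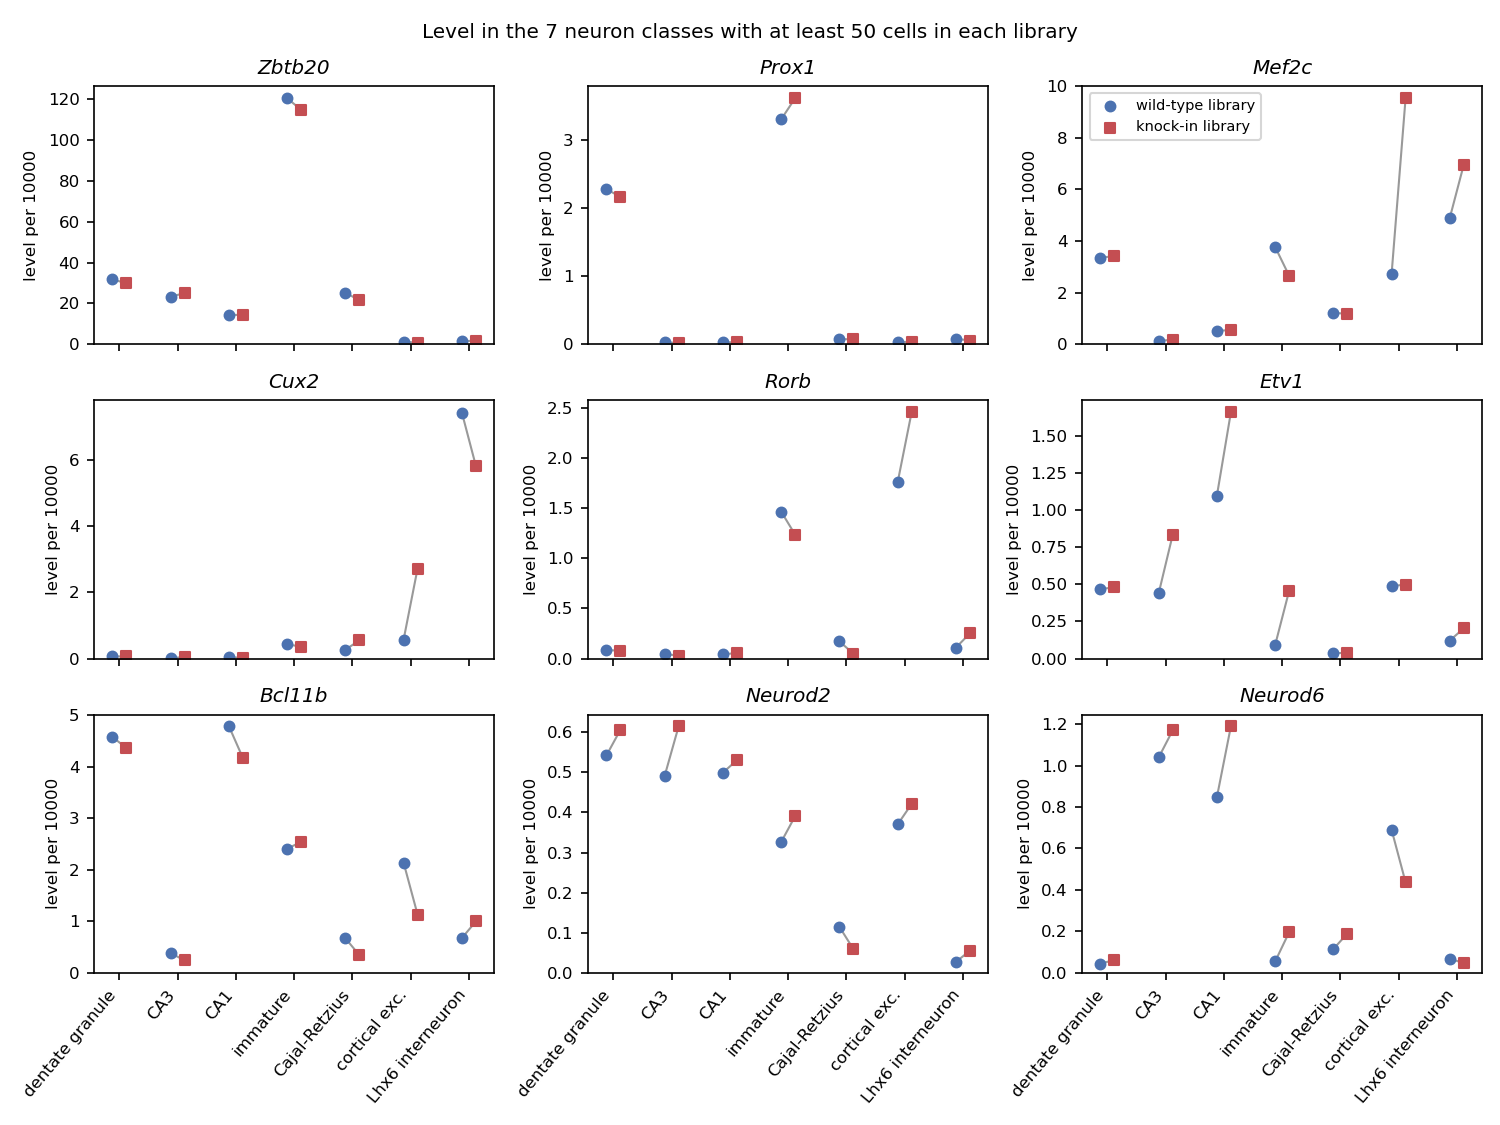
Level per 10000 (vertical axes from 0, one scale per gene) of each factor in the 7 neuron classes, wild-type as circles and knock-in as squares joined by a line. The long lines for Mef2c and Cux2 in the cortical class, from 2.73 to 9.53 and from 0.572 to 2.72, are the 2 pairs that passed the size rule.

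The cortical class was 2 clusters with different factors, and the libraries filled them unequally. The first, led by Rai14 and Foxp2, held 105 wild-type and 216 knock-in cells. It carried Bcl11b at 2.38 and 2.23 and Rorb at 1.46 and 1.12, with Mef2c at 1.40 and 1.90 and Cux2 at 0.0673 and 0.0551. Its counted markers included Fezf2, Foxp2, Tle4, Tbr1, Hs3st4, Il1rapl2, Sulf1 and Deptor, several of which are textbook genes of layer 6. The second, led by Pdzrn3 and Efna5, held 15 wild-type and 299 knock-in cells, 95.2% of them knock-in. It carried Mef2c at 12 and 15, Cux2 at 4.10 and 4.63 and Rorb at 3.83 and 3.42, while Bcl11b was at 0.403 and 0.334. Its name rests on 5 of 19 cortical markers, among them Lamp5, Rasgrf2, Il1rapl2 and Deptor, with none of the 5 among its 10 leading genes. With 1 library per genotype, a cluster found mostly in 1 library may be that library and not a cell type. The low Zbtb20 level was common to both, at 1.30 and 0.909 in the first and 1.01 and 0.639 in the second.

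Within the Efna5 cluster, Cux2 and Rorb were counted cell by cell. Of the 299 knock-in cells, 145 (48.5%, 42.7 to 54.3) had a Cux2 value of at least 2 with a Rorb value under 2, 28 (9.36%, 6.31 to 13.2) had Rorb without Cux2, 61 (20.4%, 16.0 to 25.4) had both and 65 (21.7%, 17.2 to 26.9) had neither. Every cell of the cluster had Mef2c above 0 in both libraries, and in knock-in cells its median value ran from 11 in cells with neither gene to 18 in cells with both. Of the 15 wild-type cells, 3 had Cux2 without Rorb, 6 had both and 6 had neither. In the Foxp2 cluster no cell reached a Cux2 value of 2, 0 of 105 (exact upper limit 3.45%) and 0 of 216 (1.69%), whereas Rorb reached 2 in 34 wild-type (32.4%, 23.6 to 42.2) and 42 knock-in cells (19.4%, 14.4 to 25.4).

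**Figure D3:**
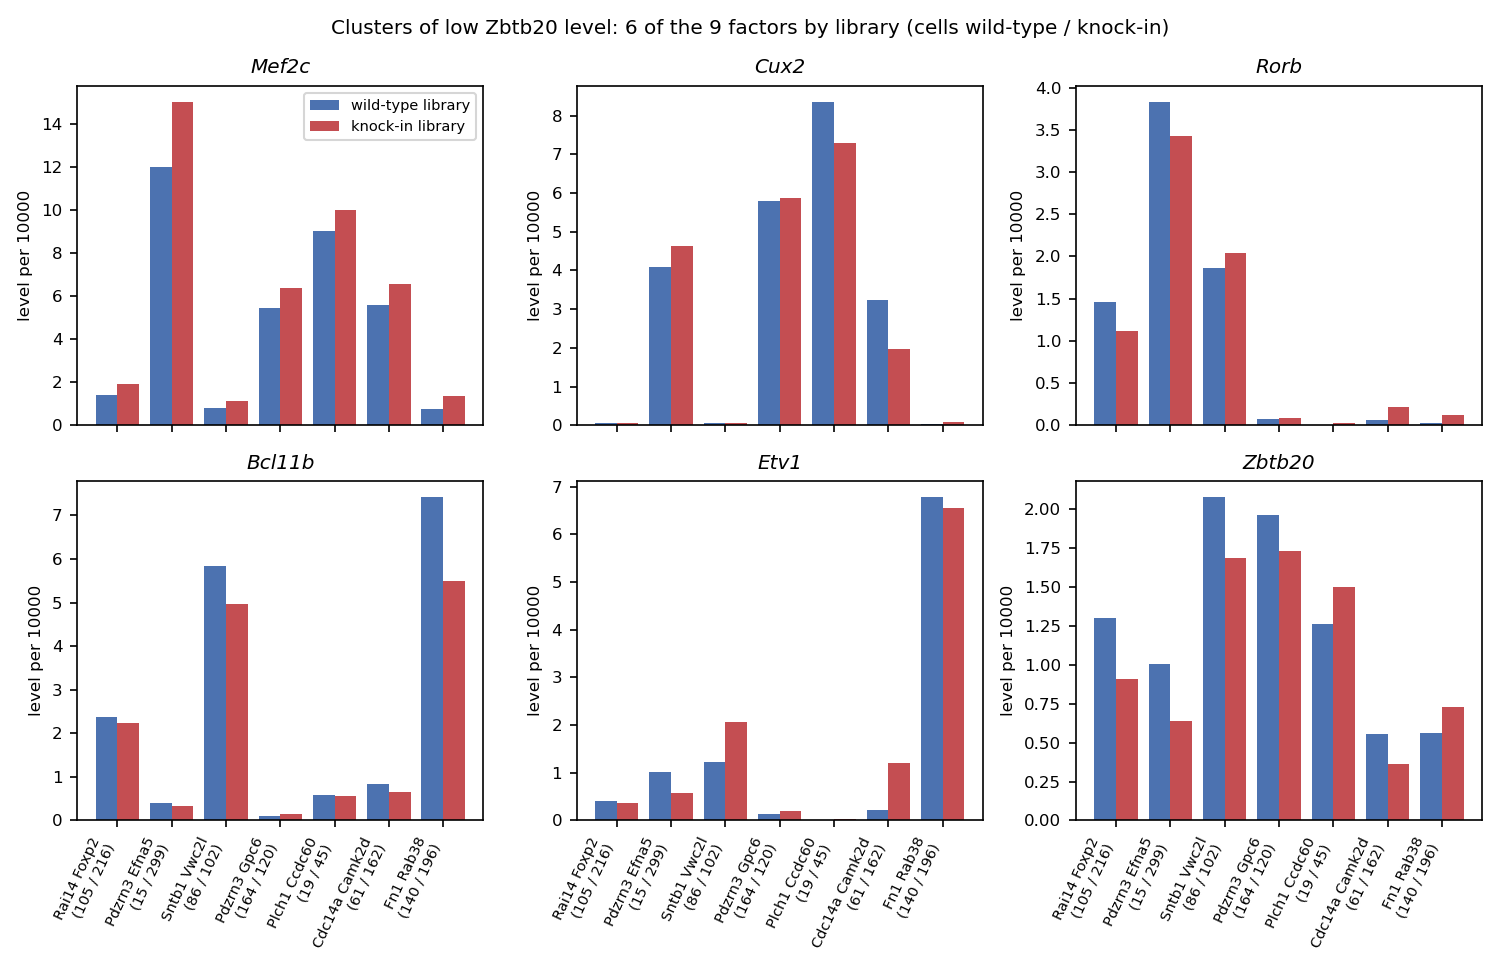
Level per 10000 of 6 factors in 7 clusters of low Zbtb20 level, as bars from 0 for the wild-type and knock-in library, with cells per library under each cluster name. The Pdzrn3 Efna5 cluster carries Mef2c, Cux2 and Rorb and the Fn1 Rab38 cluster Etv1 and Bcl11b in both libraries, while Etv1 of the Cdc14a Camk2d cluster goes from 0.229 to 1.20.

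A further 4 unnamed clusters were low in Zbtb20 and carried other combinations. In each, no list counted more markers than the cortical one. It counted 4 markers in the Gpc6, Ccdc60 and Cdc14a clusters, too small a lead for a name and a tie in the Cdc14a cluster. The cells of all 4 clusters are thus outside the cortical class, its ratios and its AUCs. A cluster led by Pdzrn3 and Gpc6, with Npsr1 and Tshz2 among its leading genes (164 and 120 cells), had Mef2c at 5.45 and 6.39 and Cux2 at 5.81 and 5.87, but Rorb at 0.0683 and 0.0832 and Bcl11b at 0.0994 and 0.150. The Plch1 and Ccdc60 cluster (19 and 45 cells) had Mef2c at 9.03 and 10.02 and Cux2 at 8.35 and 7.31, with Rorb at 0 and 0.0224 and Bcl11b at 0.578 and 0.560. The Cdc14a and Camk2d cluster (61 and 162 cells) had Mef2c at 5.59 and 6.59 and Cux2 at 3.24 and 1.98. The Sntb1 and Vwc2l cluster (86 and 102 cells) had Bcl11b at 5.85 and 4.96, Rorb at 1.86 and 2.04 and Etv1 at 1.23 and 2.07, with Cux2 at 0.0471 and 0.0685. It counted 7 cortical markers but was left unnamed, since Cntn6 from the subiculum list was among its 10 leading genes and no cortical marker was; the Efna5 cluster had no marker of any class there. In each of the 4, Zbtb20 lay between 0.362 and 2.07. An unnamed cluster led by Trpc7 and Csf2rb2 (24 and 19 cells), the latter gene on the mossy cell list, counted 7 of 8 CA3 markers. Another list counted 5, too close for a name. The cluster had Zbtb20 at 18.0 and 18.3 and Neurod6 at 1.08 and 1.25 with Prox1 at 0.0414 and 0. It so carried the pyramidal combination and not that of granule cells.

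Seen across the libraries, 3 of the 9 factors separated cortical from pooled hippocampal neurons with an AUC of at most 0.3 or at least 0.7 in both. They were Zbtb20, Prox1 and Bcl11b, all lower in cortical cells than in the pooled classes. Against CA3 cells alone, Prox1 had 0.502 and 0.506 and Bcl11b 0.788 and 0.671, and only Zbtb20 stayed lower. Of the 2766 genes at 1 per 10000 or more in these classes, a minimum that Neurod2 did not meet, 11.4% reached the limits in both libraries. None of the 3 cortical markers reached the limits in both libraries against these pooled classes. Of the cortical cells, 14.2% and 44.1% had Cux2 above 0, and 42.5% and 31.5% had Rorb above 0. Ties at 0 therefore hold the AUC of these 2 genes near 0.5, and missing the limits does not show that they lack specificity. Mef2c had an AUC of 0.487 and 0.759, Cux2 0.549 and 0.709, and Rorb 0.694 and 0.640. Against single subfields Mef2c had 0.775 and 0.878 for CA3 and 0.740 and 0.858 for CA2, past the limit in both libraries, but 0.308 and 0.669 for dentate cells. With the Efna5 cluster left out of the cortical class, an alternative chosen after seeing the data, these became 0.418 and 0.446 for Mef2c, 0.510 and 0.509 for Cux2 and 0.696 and 0.615 for Rorb. Bcl11b then stood at 0.296 and 0.319, outside the limit in the knock-in library, while Zbtb20 stood at 0.00985 and 0.0152.

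A single index combined the factors cell by cell, log2 of (Zbtb20 + 1) over (Mef2c + Cux2 + Rorb + 1), and was chosen after the values were seen. Its median was 2.94 and 2.81 in dentate, 4.46 and 4.64 in CA3, 3.46 and 3.46 in CA1 and -1 and -3.17 in cortical cells. Below 0 were 0% and 0.171% of dentate cells, 0% and 0% of CA3 cells, 0.884% (0.356 to 1.81) and 1.76% (1.01 to 2.84) of CA1 cells, and 62.5% (53.2 to 71.2) and 81.7% (78.1 to 85.0) of cortical cells. Within 0.5 of 0 lay 18.3% and 14.4% of the cortical cells. By cluster, the median of the Foxp2 cells was -1 in both libraries and that of the Efna5 cells -3.81 and -4.25, and the Efna5 cells were 15 of 120 and 299 of 515 of the class. Lhx6 interneurons had medians of -2.58 and -2.81, with 93.2% (84.9 to 97.8) and 92.8% (86.8 to 96.7) of cells below 0, so a value below 0 is not particular to cortical excitatory neurons. The unnamed Fn1 cluster had a median of 0 in both libraries, with 33.6% (25.8 to 42.0) and 34.7% (28.1 to 41.8) of cells below 0.

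**Figure D4:**
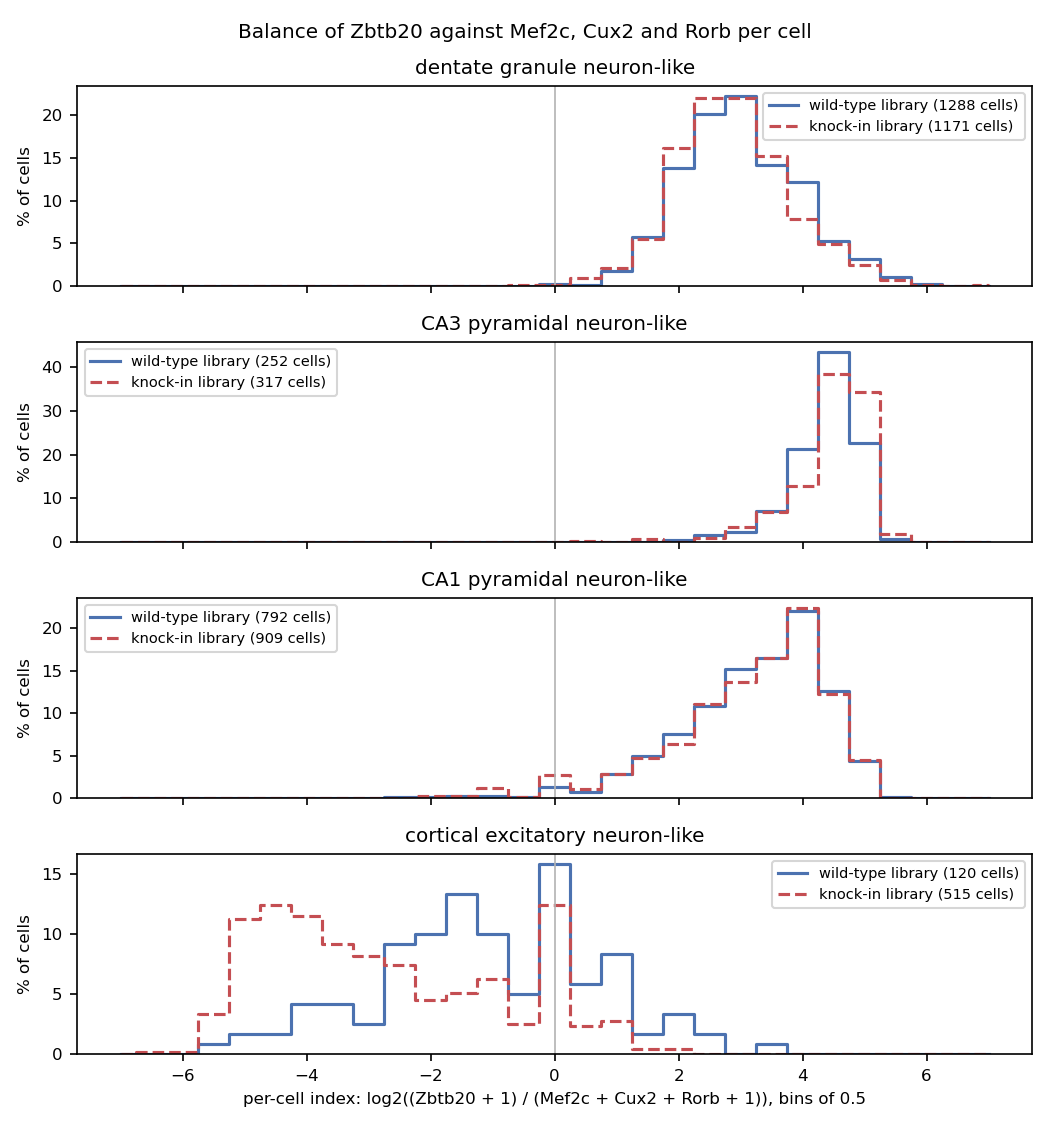
Share of cells (%) by the per-cell index, in bins of 0.5, for 4 classes, wild-type as a full and knock-in as a dashed line, with a grey line at 0. Dentate, CA3 and CA1 cells lie almost wholly above 0 in both libraries, and cortical cells lie mostly below it, 62.5% of wild-type and 81.7% of knock-in cells.

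Between the libraries, the factors' levels were compared in 63 pairs of factor and class. A pair entered the size rule when its level was at least 1 per 10000 and at least 10% of cells were above 0 in 1 library, and passed it at a difference of at least 2-fold. Of the 25 pairs that entered, 2 passed, both in the cortical class: Mef2c with a log2 ratio of knock-in over wild-type of 1.77 and Cux2 with 2.07 (0.1 added to each level, which understates the change of low genes). Over all genes 1.59% of gene and class pairs passed, and 4.55% in the cortical class. Both values moved with the Efna5 cluster: with equal cluster weights in both libraries the log2 ratios were 0.33 and 0.16, and without that cluster 0.41 and -0.11. No pair passed in the dentate class, where the 9 log2 ratios lay between -0.10 and 0.16 and 0.452% of all genes passed. The same held in the CA1 class (Zbtb20 -0.03, Prox1 0.03, Bcl11b -0.19, Neurod6 0.44, Etv1 0.55), where 0.745% of all genes passed, and in the CA3 (1.41%), Lhx6 interneuron (0.967%), Cajal-Retzius (1.61%) and immature (1.27%) classes. Over all neurons pooled no factor passed either, where 0.346% of all genes did. The pooled log2 ratios were 0.86 for Rorb, 0.48 for Mef2c, 0.45 for Cux2 and -0.31 for Zbtb20, and with every cluster given the same weight in both libraries they were -0.02, 0.15, -0.07 and -0.07.

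At the finer grain of 28 clusters with at least 15 cells in each library, 104 pairs of factor and cluster entered the rule and 2 passed, both of Etv1, against 2.02% of such pairs over all genes. The Cdc14a cluster went from 0.229 to 1.20 with 18.0% and 42.6% of cells above 0. Mef2c entered in 22 clusters with log2 ratios from -0.49 to 0.92, Zbtb20 in 26 with ratios from -0.85 to 0.26 and Bcl11b in 18 with ratios from -0.42 to 0.07. Neurod6 entered in 5 clusters with log2 ratios from 0.16 to 0.52, and in clusters under the minimum level it went in both directions, such as from 0.672 to 0.314 in the Efna5 cluster.

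The class of highest level was the same in both libraries for 5 of the 9 factors: Zbtb20 and Prox1 (immature), Cux2 (Lhx6 interneuron), Rorb (cortical) and Etv1 (CA1). This compares with 73.8% of all genes at 1 per 10000 or more in a class, a minimum that Neurod2 did not meet. Mef2c moved from Lhx6 interneurons to the cortical class, Bcl11b from CA1 to dentate, Neurod2 from dentate to CA3 and Neurod6 from CA3 to CA1, the latter 3 between classes whose levels were close. The smaller CA2 class, under the minimum of 50 cells, was left out of this order; its levels of Neurod2 and Neurod6 were above those of the 7 classes in both libraries. Across 26 neuron clusters, the log2 levels of a factor correlated between the libraries with Pearson's r from 0.90 (Etv1) to 0.99 (Zbtb20), a description of clusters that were formed on both libraries together.

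The genes of most similar pattern were ranked by the lower of both libraries' r over those 26 clusters, which share a library each and are not independent. For Prox1 these were Prox1os (0.99 and 0.97) and Gm28172 (0.94 and 0.98), both annotated as antisense genes on the plus strand at the Prox1 locus (chr1:190170296-190217276 and chr1:190168670-190169633). Whether the counting used strand is not given in the sources used here, so reads of Prox1 and of these genes may be shared. For Zbtb20 they were Arid1b (0.87 and 0.88) and Gnaq (0.84 and 0.83), for Mef2c Cntn5 (0.77 and 0.79) and Magi1 (0.77 and 0.76), and for Cux2 Rims3 (0.87 and 0.88) and Gria4 (0.87 and 0.87). Rorb was closest to Foxp2 (0.74 and 0.70) and Rmst (0.67 and 0.73), Etv1 to Wwc1 (0.80 and 0.76) and Fezf2 (0.72 and 0.73), and Bcl11b to Lmo3 (0.78 and 0.80) and Spon1 (0.76 and 0.71). Neurod2 was closest to Scn8a (0.87 and 0.89) and Slc17a7 (0.85 and 0.86), a vesicular glutamate transporter, and Neurod6 to Zdhhc23 (0.86 and 0.87) and 2900026A02Rik (0.86 and 0.85). Among the factors themselves Mef2c and Cux2 were most alike (0.70 and 0.75).

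Of 42 other forebrain transcription factors listed, 40 were in the table and 22 entered the size rule in at least 1 class, in 96 pairs, of which 9 passed, 2 upward and 7 downward from wild-type to knock-in, beside 1.59% of pairs over all genes. Tshz2, a zinc finger factor, made up 6 of the 7 lower pairs, going from 12.3 to 3.79 in the cortical class, from 1.31 to 0.0764 in CA1 and from 1.29 to 0.0820 in dentate cells. By the rule for named genes, the 6 of largest range over classes were Nfia, Nfix, Meis2, Sox5, Satb1 and Nfib. Nfia, Nfix and Nfib, nuclear factor I genes, were highest in immature neurons, as Zbtb20 was, with Nfia at 23.4 and 25, Nfix at 7.08 and 6.63 and Nfib at 27.3 and 32.4. Meis2 was highest there too, at 3.70 and 7.80, and passed the rule. Satb1 was highest in Lhx6 interneurons, at 5.66 and 6.02. Sox5, a deep-layer factor, had an AUC of 0.901 and 0.708 for cortical against pooled hippocampal cells. It was at 7.05 and 3.97 in the cortical and 0.159 and 0.143 in the dentate class. CA1 cells had 1.85 and 2.47 and CA3 cells 3.09 and 3.96, so the cortical and CA3 levels were alike in the knock-in library. There its highest class was the Lhx6 interneurons, at 4.95. The cortical values of Sox5 and Tshz2 were not split by cluster, although the libraries filled the clusters of that class unequally. Of the 40 other factors in the table, 4 separated the cortical from the hippocampal classes in both libraries: Nfia and Rfx3 lower in cortical cells, Sox5 and Etv5 higher. The share over all genes, 11.4%, is of the 2766 genes that reached the minimum level in these classes. The 40 factors were not held to that minimum, and only 22 of them entered the size rule in any class. The count of 4 and the share of 11.4% thus have unlike bases and cannot be compared directly.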

How the data were processed

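The authors deposited 1 table of whole numbers per gene and cell, read here as a score: the totals per cell lie between 4846 and 14501, a depth-corrected scale, so the sequencing depth is unknown and no count model was fitted. The submitters' processing notes name Seurat 3.0.0 and GRCm38; the aligner is not given in the sources used here. Cells were clustered with scanpy 1.11.5 (Python 3.11.15; 2000 variable genes, 30 components, 15 neighbours, resolution 1) without the 9 factors and sex-linked genes, then neurons again; no cell or doublet was removed in the main setting. A marker counted at 25% of cells above 0 and 1.5-fold the other cells; a name needed 3 markers, more than 1.5 times those of any class of another lineage, fewer than 3 mitochondrial genes among the 10 leading genes, and no other class with more markers among these 10. This rule, and the neuron limit of 100 per 10000 over general neuron markers, were set after the clusters were seen. Named genes were the 9 factors, for each the 2 of most similar pattern (clusters of at least 15 cells per library, mitochondria-led ones left out), and the 6 other factors of largest range. The factors and lists were chosen with earlier results of these data known. The level, ratio and AUC functions were tested on simulated data. A cluster and a marker gene are not reported here.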

Additional observations from a re-analysis of the deposited data

How the results depend on the processing

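The 3 counts (2 pairs past 2-fold, 5 factors with the same top class, 3 separating factors) were recomputed with the factors kept in clustering, resolutions of 0.5 and 2, 15 components, Scrublet doublets out (60 wild-type and 150 knock-in cells), a cell filter, values of 1 set to 0, thinning to 1000, per-cell means, pseudocounts of 0.01 and 1, no minimum level and other AUC limits, and, chosen after seeing the data, without the mostly knock-in cortical cluster and without the barcodes found in both libraries. Where a setting bears on them, they stayed within 1.5-fold except as follows. Pairs past 2-fold were 1 at resolution 0.5 and 0 without the mostly knock-in cluster, where the Cux2 log2 ratio reversed to -0.11. With equal cluster weights, tried on single ratios, those of the cortical class for Mef2c (0.33) and Cux2 (0.16) were both under 2-fold. Separating factors were 1 after thinning to 1000 and 1 with limits of 0.8 and 0.2. Of 882 single log2 ratios under alternatives, 840 stayed within 1.5-fold and 41 moved further. No paired analysis was possible because each genotype is a single pooled library. Depth correction leaves the molecules behind a value of 1 unknown, so a low level such as that of Prox1 in CA1 cells has no counting interval; intervals are for shares of cells.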

Other observations

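A small thalamic neuron-like cluster, led by Synpo2 and Tcf7l2, held 4 wild-type and 22 knock-in cells, and its Rorb level of 6.18 and 8.75 was the highest of any neuron cluster, with Cux2 at 4.70 and 5.75 and Zbtb20 at 3.21 and 0.929. Prox1 was at 1.48 and 0.796 there. With 4 wild-type cells these levels were not compared between libraries.

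Tshz2 was lower in the knock-in library in all 7 neuron classes, including classes where its wild-type level was low and nearly equal: 1.31 in CA1, 1.27 in CA3, 1.29 in dentate and 1.34 in immature cells, against 0.0764, 0.102, 0.0820 and 0.495. What moves with this difference was not tested.

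Oligodendrocyte precursor-like cells, which are not neurons, carried several of the cortical layer markers: Cux2 at 2.75 and 2.19, Etv1 at 1.38 and 1.27 and Rorb at 1.22 and 1.39. Mature oligodendrocyte-like cells had Prox1 at 1.35 and 1.33.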
